A study of Caenorhabditis elegans with 6 samples.

Results

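The genes described here are 43 components of the cell division machinery of Caenorhabditis elegans: cyclin-dependent kinases and their cyclins, the inhibitors and ligases that restrain them, replication factors, mitotic kinases, kinetochore and spindle checkpoint proteins, and centrosome proteins. The list names genes by function and sets no threshold on a measured value, though it was drawn up with earlier results of these data known. All 43 were found among the 17401 genes measured. RNA of whole mixed-stage embryos was hybridised to 6 Affymetrix arrays. Of these, 3 carried embryos with nDf50, which deletes a microRNA cluster running from mir-35 to mir-41 (strain VT2935 without nEx1187, by its name an extrachromosomal array), and 3 carried N2, the standard wild type. Both genotypes grew on agar plates with chicken egg yolk and spent the last 24 hours at 25 °C after 20 °C, before hypochlorite, which dissolves the mothers and spares the embryos in their shells. The deletion is inherited and present in all cells, so no tissue of the mutant embryos is spared. Further genes of the mir-35 family, which is abundant in early embryos, lie outside the deleted cluster.

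In the cell cycle, cyclin-dependent kinases are switched on in turn by cyclins: the D and E cyclins with their kinases promote entry into S phase, and the A and B cyclins promote mitosis. The MCM helicase is loaded on DNA before S phase, kinetochores then attach chromosomes to the spindle, and the spindle checkpoint holds back anaphase until they are attached. The early worm embryo divides rapidly, largely on messenger RNA and protein supplied by the mother, and most cells stop dividing before the embryo elongates and differentiates. A mixed-stage sample therefore holds both dividing and differentiating embryos.

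No member of the list passed the test between mutant and wild type, which was limma's moderated test with Benjamini-Hochberg adjustment over all genes at a threshold of 0.05. Over all genes, 3.75% passed, 0.661% lower and 3.09% higher in the mutant. The higher genes were 82.4% of those called, and 66% after each array was centred on its median. The difference (mutant minus wild type, log2 scale) was below 0 for 36 members (83.7%) and above 0 for 7, and ran from -0.70 to 0.16. Over all genes 60.7% of the differences were below 0, and over the brighter 50% of genes 62.1%, which is the background for every count of lower means given here. Its median was -0.19, a 1.14-fold lower level, against -0.05 over all genes and -0.08 over the brighter 50% of genes, which hold 42 of the members. All 3 mutant arrays lay below all 3 wild type arrays for 6 members (cdk-2, cdk-4, cya-1, rnr-2, air-2 and mdf-2), which is 14% of the list beside 13.3% of all genes, so this count is near the background. An unadjusted p under 0.05 was reached by 6 members (14%), all with lower mutant means. In that direction it was reached by 9.62% of all genes and by 1250 of the 8700 brighter genes. The members' share is near that of the brighter genes. The 95% interval of the difference left out a 2-fold higher level for all 43 members, and a 2-fold lower level for 41, the exceptions being cdk-4 and cdt-1. In whole embryos, fewer dividing cells and less RNA in each of them cannot be told apart.

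**Figure D1:**
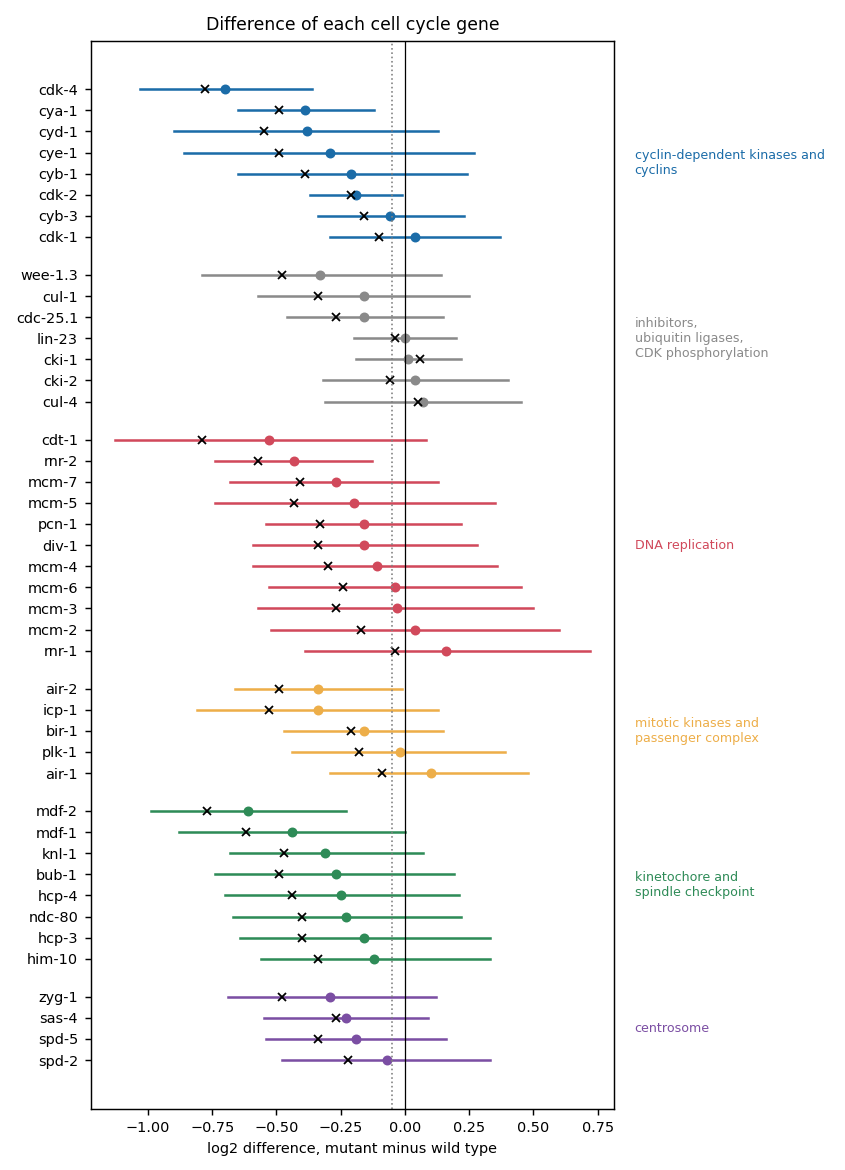
Difference between mutant and wild type (x axis, log2 scale) for each of the 43 cell cycle genes (y axis), grouped and coloured by role. Points are differences of means with 3 arrays per genotype, bars are 95% intervals from limma, crosses are the differences without mutant array 1, and the dotted line marks the median of all genes; most points lie left of 0, between -0.70 and 0.16.

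The arrays of the mutant were not alike, and this bears on every value that follows. Over the 17401 genes, mutant arrays 2 and 3 correlated at 0.9978 (Pearson's r across genes, a description of the libraries), while mutant array 1 correlated at 0.9891 and 0.9905 with them and at 0.9877 with wild type array 1. Wild type array 1 correlated at 0.9911 and 0.9888 with wild type arrays 2 and 3, which correlated at 0.9946 with each other. By correlation, mutant array 1 was thus about as close to its group as wild type array 1 was to its own. The typical absolute gap between mutant arrays 2 and 3 was 0.097 on the log2 scale. From mutant array 1 the gap was 0.187 and 0.176 to mutant arrays 2 and 3. To wild type arrays 1, 2 and 3 it was 0.165, 0.165 and 0.186, so by this measure mutant array 1 was not closer to its own genotype. Between wild type arrays it was 0.136 to 0.177. Whether replicates were separate cultures is not stated, so p-values here reflect the spread of these arrays alone, and that spread may be technical. Array medians were 113.9 to 127 intensity units, and the number of arrays limits the precision. Of the members, 42 were brighter on average than the brightest of 5 yeast probe sets, which serve as a measure of background. The exception was cdk-2, the kinase partner of cyclin E, at a mean of 5.10 log2 units in the mutant and 5.29 in wild type, so its level is open to background signal.

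The members moved together from array to array within a genotype. Relative to each gene's mean over 6 arrays, the median member stood at 0.23, -0.29 and -0.23 on mutant arrays 1, 2 and 3, and at 0.24, 0.06 and -0.03 on wild type arrays 1, 2 and 3 (log2 scale). Mutant array 1 was thus about as high as the highest wild type array, and the other mutant arrays were lower than all of wild type. Below all 3 wild type arrays were 37 members on mutant array 2 (34.6% of all genes, 40.9% of the brighter 50%), 31 members on mutant array 3 (37% and 38.7%), and 7 members on mutant array 1 (31.3% and 29.6%). On mutant array 1, 15 members lay above all wild type arrays, beside 23.2% of all genes. Mutant array 1 was the highest mutant array for 41 members, beside 39.5% of all genes and 47.6% of the brighter 50%. Wild type array 1 was the highest of its genotype for 30 members, beside 37.2%, and for 30 members both arrays numbered 1 were the highest, beside 17.5%.

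The spread within a genotype was accordingly wide for these genes. The median standard deviation over 3 arrays was 0.29 in the mutant and 0.19 in wild type for the members, and 0.13 in each for all genes. Mutant array 1 exceeded the mean of mutant arrays 2 and 3 by a median of 0.49 over the members and -0.01 over all genes. The same excess in wild type was 0.20 over the members and 0.00 over all genes. The median gap between mutant arrays 2 and 3 was only 0.08.

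**Figure D2:**
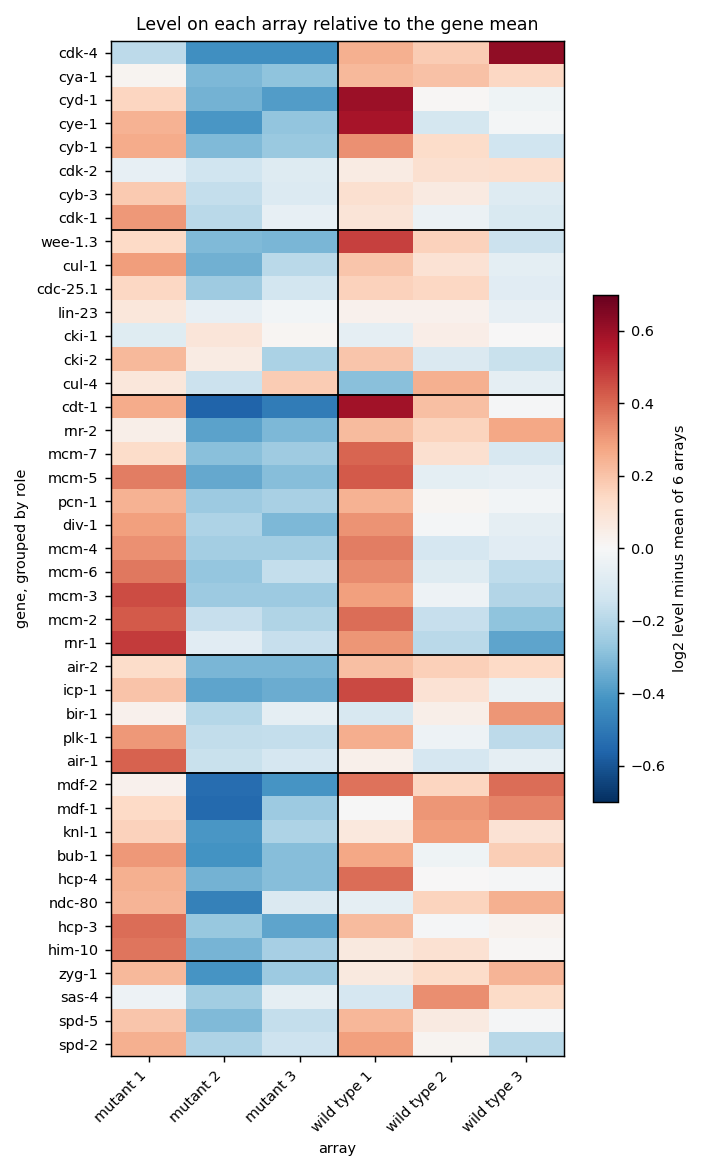
Level of each cell cycle gene (rows, grouped by role, lowest difference first) on each of the 6 arrays (columns), as log2 level minus the gene's mean over 6 arrays. Red is above and blue below the mean; mutant arrays 2 and 3 are blue for most genes, with medians of -0.29 and -0.23, and mutant array 1 is red, with a median of 0.23.

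Without mutant array 1, 9 members passed the same test, all lower in the mutant: air-2, bub-1, cdk-4, cdt-1, cya-1, mdf-1, mdf-2, rnr-2 and zyg-1. They are 20.9% of the list, and mdf-1 was only just inside the threshold (adjusted p = 0.049996). In that fit 4.24% of all genes and 7.38% of the brighter 50% were called lower, and 11.5% and 15.9% in either direction. The median difference over all members was then -0.34. Without both arrays numbered 1, 11 members passed (25.6%), all lower, the same 9 with icp-1 and knl-1, and the median difference was -0.27. There 8.09% of all genes and 13.5% of the brighter 50% were called lower, and 17.4% and 24.9% in either direction. A further fit used weights that limma estimated for each array. They were 0.33, 1.35 and 3.74 for mutant arrays 1, 2 and 3, and 0.48, 1.82 and 0.69 for wild type arrays 1, 2 and 3. With these weights 10 members passed (23.3%), all lower. There 9.82% of all genes and 15.7% of the brighter 50% were called lower, and 20.4% and 28.2% in either direction. Counted in either direction, the members' shares in the last 2 fits are near those of the brighter 50% of genes. Counted as lower only, the members' shares are above the 13.5% and 15.7% of those genes. No test of the list as a whole was run. In all 3 of these fits 8 members passed. Leaving out an array because it differs from its group narrows the spread that the test is set against, and with 3 arrays the data do not tell which array is typical of the mutant.

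Among the cyclin-dependent kinases and cyclins, 7 of 8 had lower mutant means, with a median difference of -0.25. cdk-4, the kinase that acts with cyclin D at entry into the cycle, showed the largest difference of all members. Its log2 level was 9.37, 9.12 and 9.12 on mutant arrays 1, 2 and 3, and 9.80, 9.73 and 10.17 on wild type arrays 1, 2 and 3. All mutant arrays lay below all wild type arrays. The difference was -0.70 ± 0.14 (SE, n = 3 per group), 1.62-fold lower, with a 95% interval of -1.03 to -0.36 and an adjusted p of 0.05003 from limma, which is just outside the threshold. Its other probe set gave -0.71. The call depended on the processing: 9 of 17 alternatives placed cdk-4 past the threshold, and adjusted p ranged from 0.00516 to 0.208. It was the one member called with quantile normalization, where 0.897% of all genes were called lower, with median centring (1.72%), with the dimmest 25% or 50% of genes left out (0.981% and 0.793%), with an intensity trend and robust fit (0.644%) and with the mean of a gene's probe sets (0.718%). No member was called with the replicate number as a block (0.868%). It is also the one member encoded on the X chromosome.

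cya-1, a cyclin A, was the next of this group, at 9.99, 9.66 and 9.69 on the mutant arrays and 10.20, 10.18 and 10.12 on the wild type arrays. Its wild type arrays were close together, and all mutant arrays were below them, mutant array 1 by the least. The difference was -0.39 ± 0.11 (adjusted p = 0.116), and -0.42 by its other probe set. Without mutant array 1 it was -0.49, with an adjusted p of 0.01998. cyd-1, the cyclin D partner of cdk-4, differed by -0.38 with a 95% interval of -0.90 to 0.13. Its highest array was wild type array 1, at 10.26, against 9.67 and 9.63 on the other wild type arrays. cye-1, the cyclin E, had the same shape in wild type, at 9.11 against 8.41 and 8.52, and differed by -0.29 (-0.86 to 0.27). The B cyclins, which drive mitosis, were close between genotypes for cyb-3 (-0.06, interval -0.34 to 0.23) and lower in mean for cyb-1 (-0.21, interval -0.65 to 0.24). cdk-1, the mitotic kinase itself, differed by 0.04 (-0.29 to 0.37).

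The inhibitors, ubiquitin ligases and regulators of CDK phosphorylation differed least, with a median of -0.00 over 7 genes. wee-1.3, a kinase that holds CDK1 inactive by phosphorylation, was at 9.67, 9.22 and 9.21 on the mutant arrays and 10.01, 9.69 and 9.38 on the wild type arrays. Mutant array 1 lay within the range of wild type, and the difference was -0.33 (-0.79 to 0.14). cul-1, the scaffold of SCF ubiquitin ligases, was at 10.63, 10.0008 and 10.15 in the mutant and 10.53, 10.44 and 10.27 in wild type. Its mutant array 1 was the highest of all 6 arrays and its other mutant arrays were the lowest, so the groups overlapped (-0.16, interval -0.57 to 0.25).

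lin-23, the F-box protein that brings substrates to an SCF ligase and a gene that earlier work has linked with mir-35 microRNAs, was at 9.99, 9.85 and 9.89 in the mutant and 9.94, 9.94 and 9.85 in wild type. All 6 arrays fell within a narrow range. The interval of its difference, -0.20 to 0.20, and the difference by its other probe set, -0.01, bound how far its messenger RNA can have differed here. The CDK inhibitors of the Cip/Kip type, cki-1 and cki-2, differed by 0.01 (-0.19 to 0.22) and 0.04 (-0.32 to 0.40). These genes are neighbours on chromosome II. cki-1 went against most members from array to array: its mutant array 1 was the lowest of the mutant arrays, at 10.78 against 10.95 and 10.88. cul-4, the scaffold of the ligase that acts on the licensing factor CDT-1, differed by 0.07 (-0.31 to 0.45), and cdc-25.1, the phosphatase that activates CDKs, by -0.16 (-0.46 to 0.15).

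**Figure D3:**
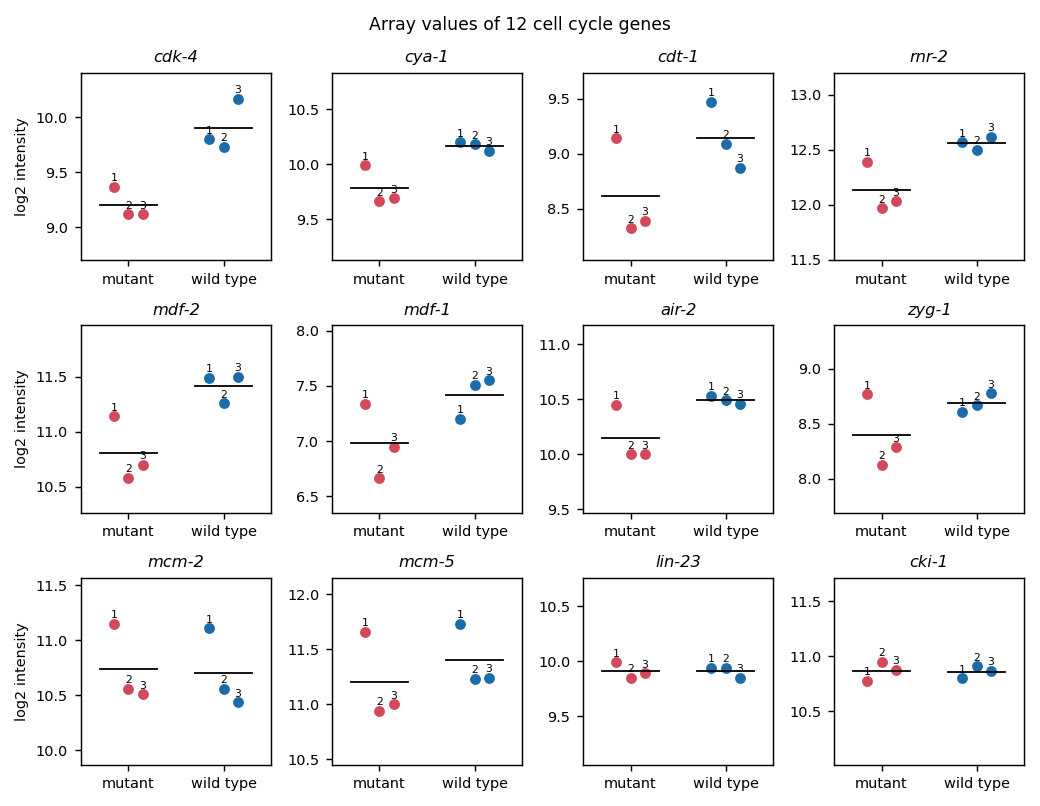
Log2 intensity (y axis) of 12 cell cycle genes on the 3 mutant (red) and 3 wild type (blue) arrays, each point labelled with its replicate number and each black line the mean of its group; every panel spans the same range of log2 units. In cdk-4, cya-1, rnr-2, mdf-2 and air-2 every mutant point lies below every wild type point, in mcm-2 and mcm-5 the arrays numbered 1 stand above the others in both genotypes, and lin-23 and cki-1 are level.

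The replication genes had a median difference of -0.16 over 11 genes, 9 of them below 0. cdt-1, which loads the MCM helicase at origins, was at 9.14, 8.32 and 8.39 on the mutant arrays and 9.47, 9.09 and 8.87 in wild type. Mutant array 1 lay inside the range of wild type, and the others were below it. The difference was -0.53 ± 0.25 with an interval of -1.13 to 0.08 (adjusted p = 0.314), and -0.79 without mutant array 1 (adjusted p = 0.0431). rnr-2, the small subunit of ribonucleotide reductase, which supplies deoxynucleotides, was at 12.39, 11.97 and 12.03 in the mutant and 12.57, 12.50 and 12.62 in wild type. All mutant arrays were below all wild type arrays, with a difference of -0.43 ± 0.13 (adjusted p = 0.126). The large subunit of the same enzyme, rnr-1, had the highest difference of all members, 0.16, with an interval of -0.39 to 0.72. Its arrays numbered 1 were the highest in both genotypes, 12.22 in the mutant and 12.04 in wild type, against 11.36 to 11.65 on the other arrays.

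The 6 MCM genes, which encode the subunits of the replicative helicase, had small differences between genotypes relative to their intervals. Their differences ran from -0.27 for mcm-7 to 0.04 for mcm-2, with a median of -0.08. Their intervals reached from -0.74 to 0.60, so that a level up to 1.67-fold lower or 1.52-fold higher is not left out for some of them. What they shared was the height of the arrays numbered 1. mcm-2, for example, was at 11.15, 10.56 and 10.51 on the mutant arrays and 11.11, 10.56 and 10.44 in wild type. mcm-5 was at 11.66, 10.94 and 11.0049 and at 11.73, 11.23 and 11.24. Over the 6 genes, array 1 exceeded the mean of the other arrays of its genotype by a median of 0.60 (range 0.39 to 0.71) in the mutant and 0.46 (0.41 to 0.62) in wild type. pcn-1, the sliding clamp of DNA polymerases, and div-1, a subunit of the polymerase that starts new strands, each differed by -0.16, with intervals of -0.54 to 0.22 and -0.59 to 0.28.

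Of the mitotic kinases and the chromosomal passenger complex, 4 of 5 had lower mutant means (median -0.16). air-2, the Aurora B kinase that corrects chromosome attachment, was at 10.45, 10.0002 and 10.0043 on the mutant arrays and 10.53, 10.49 and 10.46 in wild type. The wild type arrays were nearly level, mutant array 1 came close to them, and the other mutant arrays were lower. The difference was -0.34 ± 0.14 (adjusted p = 0.241), and -0.49 without mutant array 1 (adjusted p = 0.0199). icp-1, the INCENP protein that binds and activates Aurora B, was at 10.70, 10.13 and 10.15 in the mutant and 10.96, 10.60 and 10.45 in wild type, a difference of -0.34 (-0.81 to 0.13) by this probe set and -0.33 by its other one. bir-1, a further subunit of that complex, differed by -0.16 (-0.47 to 0.15). The kinases of centrosome maturation and mitotic entry were level in mean: plk-1 differed by -0.02 (-0.44 to 0.39) and air-1, the Aurora A kinase, by 0.10 (-0.29 to 0.48).

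All 8 kinetochore and spindle checkpoint genes had lower mutant means, from -0.61 to -0.12, with a median of -0.26. On mutant arrays 2 and 3 each of the 8 lay below all wild type arrays, and on mutant array 1 only mdf-2 did. mdf-2, the worm Mad2 protein that carries the checkpoint signal, was at 11.14, 10.58 and 10.70 on the mutant arrays and 11.49, 11.26 and 11.50 in wild type. The groups did not overlap, and the difference was -0.61 ± 0.16, with an interval of -0.99 to -0.23 (adjusted p = 0.0951). mdf-1, the Mad1 protein that recruits Mad2 to kinetochores, was at 7.34, 6.66 and 6.95 in the mutant and 7.20, 7.51 and 7.55 in wild type. Its wild type array 1 lay below mutant array 1, so the groups overlapped (-0.44 ± 0.19, adjusted p = 0.257). Without mutant array 1 the difference was -0.62, with an adjusted p of 0.049996 from limma.

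The remaining kinetochore genes had smaller differences, with intervals that all held 0. hcp-3, the centromeric histone, differed by -0.16 (-0.64 to 0.33), and hcp-4, the CENP-C protein bound to it, by -0.25 (-0.70 to 0.21). Of the outer proteins that bind microtubules, knl-1 differed by -0.31 (-0.68 to 0.07), ndc-80 by -0.23 (-0.67 to 0.22) and him-10, the Nuf2 partner of ndc-80, by -0.12 (-0.56 to 0.33). bub-1, a checkpoint kinase at the outer kinetochore, differed by -0.27 (-0.74 to 0.19), and by -0.49 without mutant array 1 (adjusted p = 0.0485). The excess of array 1 over the other arrays of its genotype had a median of 0.55 in the mutant (0.48 to 0.71) and 0.06 in wild type (-0.33 to 0.39). The medians were also higher in the mutant than in wild type for the centrosome genes (0.43 and 0.04), the mitotic kinases and passenger complex (0.48 and 0.13), the cyclin-dependent kinases and cyclins (0.37 and 0.14), the inhibitors and ligases (0.31 and 0.13) and the replication genes (0.59 and 0.46). The difference between genotypes in this excess was not tested.

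**Figure D4:**
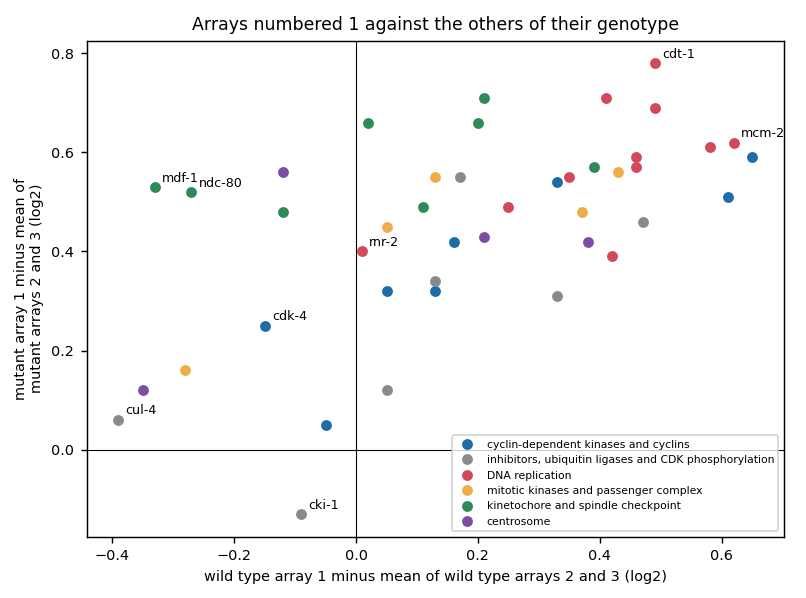
Excess of mutant array 1 over the mean of mutant arrays 2 and 3 (y axis) against that of wild type array 1 over the mean of wild type arrays 2 and 3 (x axis), in log2 units, for the 43 cell cycle genes coloured by role. Replication genes lie high on both axes, with medians of 0.59 and 0.46, and kinetochore genes lie high on the mutant axis and around 0 on the other, with medians of 0.55 and 0.06.

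The 4 centrosome genes all had lower mutant means, with a median of -0.21. zyg-1, the kinase that starts centriole duplication, was at 8.77, 8.13 and 8.29 on the mutant arrays and 8.61, 8.67 and 8.78 in wild type. Mutant array 1 was among the wild type values and the others below them, for a difference of -0.29 (-0.69 to 0.12). Its other probe set gave -0.47, a gap of 0.19, the widest of any member among probe sets above the yeast controls. sas-4, a structural protein of the centriole, was at 8.75, 8.54 and 8.72 in the mutant and 8.67, 9.11 and 8.92 in wild type (-0.23, interval -0.55 to 0.09). spd-2 and spd-5, which build the material around the centrioles, differed by -0.07 (-0.48 to 0.33) and -0.19 (-0.54 to 0.16).

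The probe sets of a gene gave like values. Of the members, 17 had 18 further probe sets, 17 of which were above the yeast controls. The sign of the difference was the same as in the brighter probe set for 16 of these 17, the exception being cki-1 (-0.08 against 0.01). The second probe set of spd-5 was at the level of the controls and gave 0.12, a gap of 0.31 from the brighter one. By the suffix of the probe set, 30 of the members were read by a design that Affymetrix flags as able to match several transcripts, and for those a related transcript can contribute to the signal. The members lie on all 6 chromosomes, with 13 on III, 11 on I, 8 on II, 6 on V, 4 on IV and 1 on X.

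Other genes of the same machinery were read from 6 further lists with 120 names, of which 114 were measured. None of the 114 passed the test, 97 had lower and 17 higher mutant means, and their median difference was -0.19, the same as for the 43 members. Unadjusted p under 0.05 was reached by 17 with lower and 2 with higher mutant means, beside 9.62% and 10.1% of all genes. Of the 8700 brighter genes, 1250 and 1017 reached it in these directions. Without mutant array 1, 13 passed, all lower, beside 4.24% of all genes and 7.38% of the brighter 50% called lower. The lists with the lowest medians were the anaphase-promoting complex, the ligase that ends mitosis (-0.29, all 11 below 0), and other cell cycle regulators (-0.28, 16 of 19 below 0). Other replication genes stood at -0.20 (27 of 29 below 0), other kinetochore genes at -0.19 (15 of 19), other centrosome and spindle genes at -0.18 (16 of 19), and cohesin and condensin at -0.07 (12 of 17).

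Within these lists the 2 genes with the widest difference each were as follows. Among replication genes, dut-1, the dUTPase, differed by -0.46 (adjusted p = 0.331), and mcm-10, which helps to activate the helicase, by -0.42 (0.237). In the cohesin and condensin list, ify-1, the securin, differed by -0.33 (0.406) and coh-1, a cohesin subunit, by -0.29 (0.400). Of the anaphase-promoting complex, such-1, a subunit, differed by -0.50 (0.223) and fzr-1, an activator, by -0.38 (0.235). For fzr-1 mutant array 1 was the lowest of the mutant arrays, at 10.12 against 10.26 and 10.31, unlike most genes of these lists.

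The widest differences of the kinetochore, spindle and other regulator lists went in both directions. knl-3, a kinetochore scaffold protein, was at 10.14, 9.51 and 9.50 in the mutant and 10.45, 10.17 and 10.58 in wild type, a difference of -0.68 (adjusted p = 0.123). zwl-1, of the complex that brings dynein to kinetochores, was at 9.51, 8.96 and 8.86 in the mutant and 8.61, 8.36 and 8.35 in wild type, a difference of 0.67 in the other direction (adjusted p = 0.104). All 3 mutant arrays of zwl-1 were above all wild type arrays. Of the centrosome and spindle list, dhc-1, the dynein heavy chain, differed by 0.48 (adjusted p = 0.272) and sas-5, a centriole assembly protein, by -0.41 (0.234). Of the other regulators, cul-6 and cul-3, both cullins, differed by 0.60 (0.098) and -0.45 (0.111).

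The medians of lists that mark embryonic stage also differed between mutant array 1 and the other mutant arrays. Maternal and early embryo genes (20 of 20 measured, all above the yeast controls) had medians of 0.21, -0.26 and -0.23 on mutant arrays 1, 2 and 3, and of 0.18, 0.16 and -0.08 on wild type arrays 1, 2 and 3. These values are close to those of the cell cycle genes, and the summed intensity was 19836 to 26969 in the mutant and 22404 to 26658 in wild type. The first transcripts made by the embryo itself (13 of 16 measured, med-1 not above the controls) stood at 0.14, -0.39 and -0.31 in the mutant and 0.04, 0.13 and 0.13 in wild type, with sums of 4845 to 7931 and 7303 to 7793. The median over genes of differentiated muscle, cuticle, nerve and gut, which mark the late embryo, went the other way. It was -0.12, 0.35 and 0.34 in the mutant and -0.05, -0.12 and -0.09 in wild type. The gut genes elt-2, ges-1 and pho-1 differed by -0.29, 0.04 and 0.06. Of the 23 genes of this list, 19 had higher mutant means and 4 (elt-2, dpy-7, unc-119 and mup-2) had lower ones. All 23 were above the controls, their sums were 55488 to 68384 and 55345 to 58732, and 3 of the 23 rose in the mutant past the threshold, beside 3.09% of all genes: rol-6 and dpy-5, which encode or process cuticle collagens, by 1.16 and 1.90, and egl-3, a processing enzyme of neuropeptides, by 1.52. These 3 genes did not follow their list's median on mutant array 1, where they stood 0.95, 1.55 and 0.95 above the wild type mean. They were not alone: on that array 7 of the 23 lay above all wild type arrays, beside 23.2% of all genes. Another 3 of the 23 lay below all of them, beside 31.3%. Among the 7 were myo-1 and myo-2, which differed by 1.48 and 1.49 over all arrays and did not pass the test. The part of stage in the differences of the cell cycle genes was not tested.

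**Figure D5:**
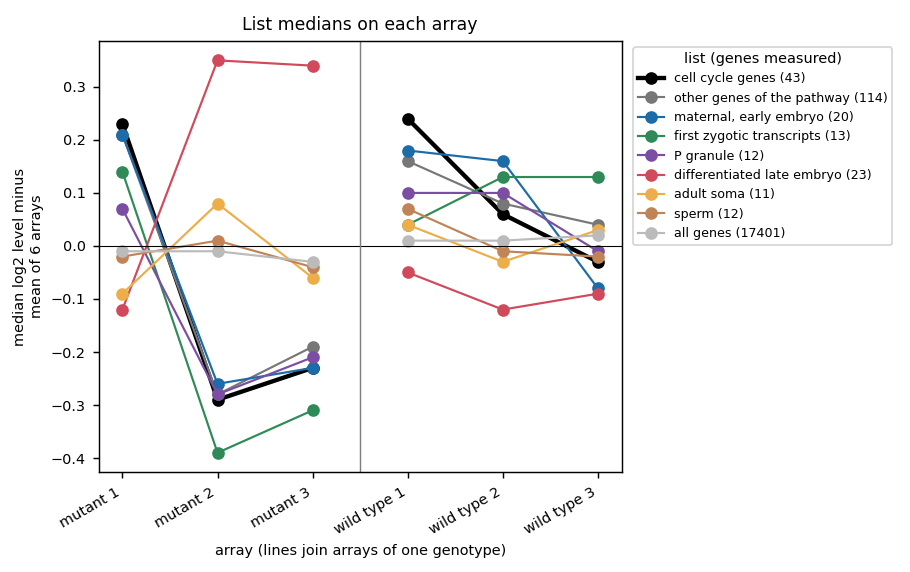
Median over the genes of each list of the log2 level minus the gene's mean over 6 arrays (y axis), on each array (x axis). The cell cycle genes (black) and the maternal genes (dark blue) are low on mutant arrays 2 and 3, at -0.29 and -0.23 and at -0.26 and -0.23, where late embryo genes (red) are high, at 0.35 and 0.34; on mutant array 1 the order is turned.

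Markers of adult tissue and sperm lay partly at the level of the yeast controls. Adult soma genes (11 of 11 measured, 7 above the controls, with the yolk protein genes vit-2 and vit-5 and the cuticle genes rol-1 and bli-1 not above them) had a median difference of -0.04 and sums of 3489 to 4162 in the mutant and 3309 to 3782 in wild type. Most of these sums came from col-119, at 11.44 to 11.83 log2 units on single arrays. Its probe set is of a type that can match several transcripts. Sperm genes (12 of 13 measured, 3 above the controls) had a median difference of -0.01 and sums of 559 to 571 and 561 to 608. P granule genes, which mark the germ lineage, had a median difference of -0.21 over 12 measured, 10 of them above the controls, with sums of 3808 to 5708 and 4079 to 4782. Among these pgl-3, a structural protein of the granules, fell by 0.70, at 7.19, 7.05 and 7.08 on the mutant arrays and 7.80, 7.80 and 7.81 on the wild type arrays (adjusted p = 0.00884). Unlike most members of the cell cycle list, pgl-3 was low on mutant array 1 as well. Its paralogue pgl-1 differed by as much in the other direction, 0.70, at 10.52, 9.78 and 9.83 on the mutant arrays and 9.35, 9.41 and 9.27 in wild type, and did not pass the test (adjusted p = 0.112).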

How the data were processed

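Per the submitters' processing notes, the authors used Affymetrix Expression Console. Neither its version nor its summarization algorithm is given in the sources used here. The authors deposited a table of normalized linear intensity values with a column for each array, and a series matrix of log2 values that the authors deposited equals the log2 of that table within 5.66e-06. If the arrays were scaled to a common distribution, changes in total RNA per embryo would be hidden. Some description fields give stages of insect development and were not used.

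The table had 22625 probe sets including 77 controls, which were dropped, and 20812 of the others had 1 gene, 676 several and 1060 none. Each gene took its brightest probe set. Names followed a gene table of assembly WBcel235 for 16895 genes and the deposited table for 506. Log2 values, with no pseudocount and no filter, were compared between 3 mutant and 3 wild type arrays by limma (version 3.58.1, lmFit then eBayes, R 4.3.3) in a 2-sided test adjusted by Benjamini-Hochberg. The steps were tested on simulated data. Other fits took the series matrix, array weights, quantile normalization or medians set equal, dropped an array, both arrays numbered 1 or the dimmest 25% or 50% of genes, added 16 to each value, averaged a gene's probe sets, let the variance follow intensity robustly, or blocked on replicate number.

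Values on every array are given for the 2 members of each role with the widest difference, for lin-23 and for examples. Values of mcm-2, mcm-5, pgl-1, pgl-3, rnr-1 and the further genes shown on single arrays were chosen after they were seen. Of the further lists, the 2 widest per list are named. The members and lists were chosen with earlier results of these data known. No sequences are printed.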

Additional observations from a re-analysis of the deposited data

How the results depend on the processing

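Under 17 alternatives the median difference over the members kept its direction, between -0.34 and -0.08. The median over all genes was also below 0 under each of them, between -0.13 and -0.03. The value of -0.08 came without mutant array 2, where the median over all genes was -0.05. Leaving out 1 array in turn gave 100 to 2009 genes called, 0 to 9 members and 0 to 13 other genes of the pathway. The highest of each came without mutant array 1, and the lowest gene count without mutant array 3. These fits also have fewer arrays than the main fit, and the part of that in the counts was not tested. Without both arrays numbered 1, 3025 genes, 11 members and 23 of the 114 other genes of the pathway were called, and with array weights 3553, 10 and 25. The genes called were 17.4% of all genes and 24.9% of the brighter 50% in the first of these fits, and 20.4% and 28.2% in the second. With quantile normalization, median centring, the dimmest 25% or 50% left out, an intensity trend with a robust fit, and the mean of probe sets, 1 member was called, cdk-4 each time. Leaving out the dimmest 50% called 431 genes, of fewer tested. lin-23, whose difference was -0.00, ran from -0.04 to 0.03 with 1 array left out and was 0.05 with quantile normalization and -0.08 with median centring. Of 221 values of named members under the alternatives, 184 kept direction and side of the threshold, 32 moved past it, 0 lost it, and 5 changed sign, all of lin-23. The cause was not tested.

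The replicate numbers share no stated batch. Deviations from the group means of arrays with the same number correlated at 0.21, 0.01 and 0.14 across genes, and mutant array 3 correlated best with wild type array 2 (0.33). The replicate block called 792 of the 17401 genes, 641 of them higher in the mutant. It called 0 members and 2 of the 114 other genes of the pathway, both higher in the mutant. Genes near the yeast controls, cdk-2 among the members, are limited by signal over background.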
